A study of Homo sapiens with 6 samples.

Results

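The genes of the integrated stress response driven by the transcription factor ATF4 were followed in azacitidine-resistant K562 cells and in the sensitive cells they came from. The set was a list of 39 genes given by name for their function, drawn up with earlier results of these data known, and all 39 matched a gene identifier among the 61487 in the count table. K562 is a human chronic myeloid leukaemia cell line, and azacitidine is a cytidine analogue built into RNA and DNA that traps DNA methyltransferases. The resistant group was 3 libraries of K562 cells kept for months in rising concentrations of the drug, and the reference was 3 libraries of sensitive K562 cells. Neither the labels nor the design text say whether the resistant population was 1 clone, or whether drug was in the medium at harvest. The comparison asks how the stress response genes of the derived population differ from those of the starting line. Differences that come with resistance cannot be told apart from other changes that arose during the months of culture.

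Cells that lack amino acids, haem or protein folding capacity phosphorylate the translation factor eIF2 through dedicated kinases. General protein synthesis then falls while the ATF4 messenger is translated more, so that ATF4 activity is set largely at translation rather than at the level of its RNA. ATF4 pairs with C/EBP proteins on a composite element and raises genes for amino acid uptake, amino acid synthesis, aminoacyl-tRNA synthetases and feedback inhibitors of the response.

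The composite element, called the C/EBP-ATF response element, was searched for in the promoters of these genes, because it is the sequence through which the pathway is known to act. Promoter windows of 300 bases, from 250 before to 50 after a start, came from RefSeq on GRCh38.p14 and were found for 34 of the 39 genes, in 55 windows. The core TGATGCAA, on either strand, was in the windows of 8 of these 34 genes (23.5%), against 295 of 27305 genes with a window (1.08%). Counted by window, the shares were 14.5% of 55 and 0.866% of 35116. The looser core TGATGNAA, which includes the first, was in 14 of the 34 genes (41.2%), against 4.46% of all genes with a window. The list holds genes known as ATF4 targets, so these higher shares may follow from how it was drawn up. The matches below show how alike the elements of different genes are. Each is written in the direction that reads TGATG, with the 8 core bases in capitals and up to 6 flanking bases on each side.
AARS1: cttggcTGATGCAActgcga
CARS1: agaatcTGATGCAAccgccg
CEBPG: ggcgtcTGATGCAAcctgcc
CHAC1: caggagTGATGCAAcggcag
JDP2: cggggcTGATGCAAcccgtc
MARS1: cctcgcTGATGCAAccggaa
SLC1A4: tggagaTGATGCAAacggga
SLC1A5: agtggcTGATGCAAgctgtc
ASNS: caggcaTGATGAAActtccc
ATF3: tcaggaTGATGGAAggctgt
GARS1: ggagcaTGATGAAAtcgccg
SLC38A1: cccgaaTGATGAAAagggat
SLC3A2: ggagcTGATGTAAggagtc
SLC7A1: cactgcTGATGAAAcctggc
The first 8 hold TGATGCAA and began between 2 (CARS1) and 209 (CHAC1) bases before the start. The other 6 hold only the looser core. A match shows that the letters are present and does not show that a protein binds there.

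Whole windows are shown for JDP2, AARS1, SLC7A1 and ASNS, the 4 genes with the smallest adjusted p among those called whose window held the element. Lower-case letters run 5′ to 3′ along the strand of the gene, and the element is in capitals. JDP2 lies at chr14:75427772-75428071 on the plus strand, AARS1 at chr16:70289457-70289756, SLC7A1 at chr13:29595639-29595938 and ASNS at chr7:97872359-97872658, these 3 on the minus strand. In AARS1 the element reads on the opposite strand, as TTGCATCA.
JDP2: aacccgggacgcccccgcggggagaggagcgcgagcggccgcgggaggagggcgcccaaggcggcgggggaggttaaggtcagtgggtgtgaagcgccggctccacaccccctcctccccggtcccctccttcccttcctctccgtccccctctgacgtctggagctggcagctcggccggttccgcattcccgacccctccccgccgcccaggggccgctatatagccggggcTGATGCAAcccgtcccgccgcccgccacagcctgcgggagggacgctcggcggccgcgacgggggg
AARS1: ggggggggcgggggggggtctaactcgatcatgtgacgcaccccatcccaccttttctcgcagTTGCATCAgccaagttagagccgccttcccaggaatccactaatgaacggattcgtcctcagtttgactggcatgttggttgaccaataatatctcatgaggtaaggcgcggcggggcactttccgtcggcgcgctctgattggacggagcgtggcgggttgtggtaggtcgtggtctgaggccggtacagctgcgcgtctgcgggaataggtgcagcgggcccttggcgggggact
SLC7A1: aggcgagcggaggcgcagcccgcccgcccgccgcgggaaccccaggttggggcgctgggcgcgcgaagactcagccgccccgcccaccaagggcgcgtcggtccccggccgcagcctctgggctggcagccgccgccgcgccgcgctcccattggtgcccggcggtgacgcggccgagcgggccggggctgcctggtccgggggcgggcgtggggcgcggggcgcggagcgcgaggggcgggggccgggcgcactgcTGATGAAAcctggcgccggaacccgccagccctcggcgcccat
ASNS: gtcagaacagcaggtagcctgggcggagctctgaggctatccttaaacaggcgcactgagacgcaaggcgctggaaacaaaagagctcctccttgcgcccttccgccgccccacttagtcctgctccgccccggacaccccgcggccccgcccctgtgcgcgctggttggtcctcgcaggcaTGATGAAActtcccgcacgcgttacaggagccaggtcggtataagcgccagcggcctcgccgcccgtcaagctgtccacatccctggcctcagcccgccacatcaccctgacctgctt
The JDP2 element stood 16 bases before the start and that of ASNS, the nutrient-sensing element known from this promoter, 68 bases before it. Of these 4 genes, SLC7A1 was higher in resistant cells and the others were lower.

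Total counts were between 33007642 and 37991708 in the resistant and between 34924828 and 43006918 in the sensitive libraries. Levels are CPM, counts scaled to a common library size with TMM factors, given as mean ± SD over 3 libraries per group. The erythroid regulators GATA1, KLF1 and TAL1, which K562 cells are known to express, averaged between 83.9 and 96.7 CPM in resistant cells and between 66.1 and 113 CPM in sensitive cells. Summed over 10 erythroid markers, levels were 918 to 1553 CPM in resistant and 725 to 1637 CPM in sensitive libraries. HBE1 averaged only 0.211 and 0.0178 CPM in resistant and sensitive cells, and HBZ 8.55 and 4.27 CPM. Sums of 4 epithelial markers, in the same order, were 99.98 to 126 and 111 to 131 CPM. Those of 5 fibroblast markers were 4.80 to 7.91 and 1.24 to 3.33 CPM. Among these CDH1 and COL1A2 were called higher and COL3A1 lower. The labels call the cells myeloblasts, but of 6 myeloblast markers MPO, ELANE and CD34 averaged at or below 0.0823 CPM in both groups. PRTN3 averaged 0.276 CPM in resistant and 1.38 CPM in sensitive cells, AZU1 averaged 2.40 CPM in resistant and 3.87 CPM in sensitive cells, and CD33 averaged 10.6 CPM in resistant and 105 CPM in sensitive cells. The summed level of 6 lymphocyte markers was between 9.64 and 11.6 CPM in resistant and between 24.2 and 103 CPM in sensitive libraries, mostly CD3D in sensitive cells, and MS4A1 was at 0 in every library. Its part in the results was not tested. Mitochondrially encoded transcripts took 19.0%, 17.6% and 8.99% of counts in resistant replicates 1, 2 and 3, and between 13.5% and 16.9% in the sensitive libraries.

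More of the stress response genes were lower than higher in resistant cells. Of the 38 that passed the filter on low counts, 17 were lower, 2 were higher and 19 were not called at an edgeR adjusted p below 0.05. Over all 20891 genes tested, 13.1% were called lower and 9.83% higher. These shares are also the background for the counts by role below, and roles of 3 or 4 genes are too small to set against them. The median log2 fold change of the 38 was −0.73, against 0.03 for all genes tested, and 31 of the 38 had a negative value. In 19 of the 38 genes every resistant library lay below every sensitive library, an arrangement found in 21.4% of all genes tested. In 3 genes every resistant library lay above, as in 18.7% of all genes. The summed level of the 39 genes was 5230, 5458 and 8278 CPM in resistant replicates 1, 2 and 3, against 9385, 9736 and 9987 CPM in the sensitive libraries. Leaving out libraries, which also leaves fewer to test with, moved the count of 17 by over 1.5 times in 5 fits. It was 11 without resistant replicate 1, 8 without resistant replicate 2, 10 without sensitive replicate 1 and 10 without sensitive replicate 2. Without both libraries numbered 3, 27 genes were lower. The count of higher genes was 1 without resistant replicate 2, sensitive replicate 1 or sensitive replicate 2. Calls over all genes were 2054 higher and 2741 lower with TMM, 3041 and 2118 when only library totals were used, with a median of 0.20 over all genes, and 3575 and 2980 with a replicate block and offsets for length and GC content, where it was 0.14. Under these scalings 15 and 22 of the stress response genes were lower, and 2 and 3 were higher.

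**Figure D1:**
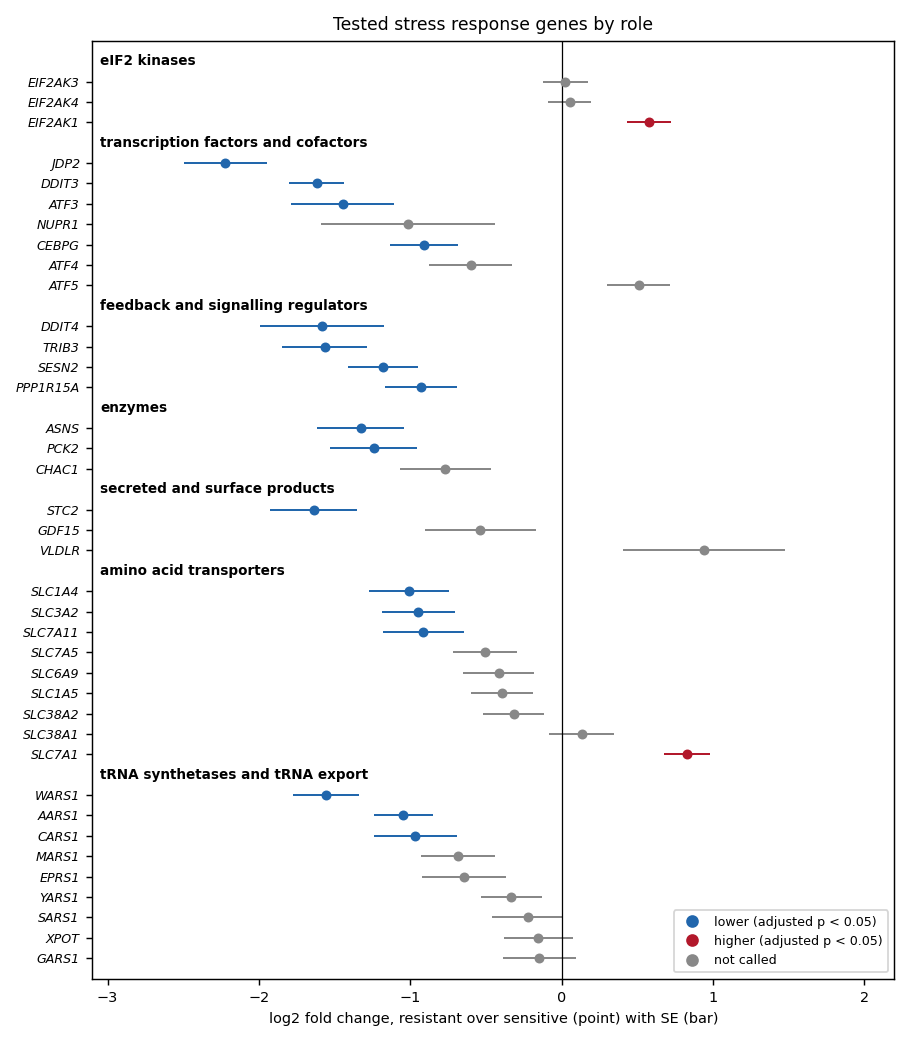
Log2 fold change, resistant over sensitive, of the 38 tested stress response genes grouped by role, with the SE as a bar and 3 libraries per group. The 17 genes called lower and the 2 called higher are coloured, and JDP2 has the lowest value at −2.22.

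Of the eIF2 kinases, only EIF2AK1 was called. EIF2AK1 encodes HRI, the kinase that responds to low haem and to mitochondrial stress. It measured 216, 210.0 and 215 CPM in the resistant libraries, against 138, 150.4 and 142 CPM in the sensitive libraries. The groups did not overlap, and the log2 fold change was 0.58 ± 0.15 (SE, edgeR adjusted p = 0.0181). This call was lost without resistant replicate 2 (adjusted p = 0.0964), sensitive replicate 1 (0.115) or sensitive replicate 2 (0.0799). EIF2AK3, which encodes PERK, the kinase of the endoplasmic reticulum, averaged 27.3 ± 1.27 CPM in resistant and 26.9 ± 2.24 CPM in sensitive cells. EIF2AK4, which encodes the amino acid sensor GCN2, averaged 53.8 ± 5.53 and 51.8 ± 1.38 CPM in resistant and sensitive cells. The differences of these 2 genes, with log2 fold changes of 0.02 ± 0.15 and 0.05 ± 0.14 (SE), were within the spread between libraries (adjusted p = 0.928 and 0.819).

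ATF4 itself was not called, while 4 of its partners and target factors fell. ATF4 measured 294, 389 and 622 CPM in the resistant libraries, against 570.5, 645 and 762 CPM in the sensitive libraries, with a log2 fold change of −0.60 ± 0.27 (SE, edgeR adjusted p = 0.146). Resistant replicate 3 lay within the range of the sensitive libraries and the other 2 resistant libraries lay below it. Without resistant replicate 3 the value was −0.97 and the gene was called lower (adjusted p = 0.00810). It was also called with the replicate block (adjusted p = 0.00863) and without a filter on low counts (0.0399). In the fit without that filter, SEs of genes with unlike spread came close together. Those of DDIT4 and SLC7A1 were 0.22 and 0.20, against 0.41 and 0.15 in the main fit. Calls gained in that fit, here and below, therefore do not rest on the spread of each gene. Per kilobase of exon, ATF4 had the highest level of the 39 genes in resistant cells, at 173 CPM per kilobase, and the second highest in sensitive cells, at 262, where DDIT4 stood at 309.7.

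JDP2, an AP-1 family repressor, had the lowest fold change of the 39 genes. It measured 2.62, 3.09 and 5.42 CPM in the resistant libraries, against 18.1, 17.3 and 16.6 CPM in the sensitive libraries, a fold change of −2.22 ± 0.27 on the log2 scale (SE, edgeR adjusted p = 0.000385). Every resistant library lay far below every sensitive one. DDIT3, which encodes CHOP, the factor that links prolonged stress to cell death, measured 27.8, 34.5 and 40.4 CPM in resistant and 108, 117 and 89.8 CPM in sensitive libraries (log2 fold change −1.62 ± 0.18 SE, adjusted p = 0.000224). DDIT3 shares 27.2% of its exon bases with MARS1 on the opposite strand. ATF3, a stress-induced repressor and activator of the same family, measured 5.66, 8.54 and 15.5 CPM in resistant and 31.6, 29.8 and 19.5 CPM in sensitive libraries (−1.45 ± 0.34 SE, adjusted p = 0.0131). In both genes sensitive replicate 3 was the lowest sensitive library and resistant replicate 3 the highest resistant one, and the groups stayed apart. CEBPG, which encodes a C/EBP partner of ATF4, measured 63.7, 73.4 and 117 CPM in resistant and 149, 161 and 168 CPM in sensitive libraries (−0.91 ± 0.22 SE, adjusted p = 0.0164).

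Calls of 2 of these factors were lost when single libraries were left out. Each such fit has only 2 libraries in the reduced group, so a lost call need not mean that a single library carried the difference. Across these fits the log2 fold change was between −1.94 and −1.16 for ATF3 and between −1.24 and −0.74 for CEBPG. That of ATF3 was lost without resistant replicate 2 (adjusted p = 0.0685) or sensitive replicate 1 (0.0521). That of CEBPG was lost without resistant replicate 1 (0.0509), resistant replicate 2 (0.105), sensitive replicate 2 (0.0510) or sensitive replicate 3 (0.0556). ATF5, a factor related to ATF4 that is also controlled at translation, averaged 91.5 ± 16.9 CPM in resistant and 64.3 ± 14.3 CPM in sensitive cells, with overlapping groups (0.51 ± 0.21 SE, adjusted p = 0.107). It shares 21.2% of its exon bases with NUP62 on the opposite strand, whose log2 fold change was 0.55, and it was called higher with offsets for length and GC content (0.62, adjusted p = 0.0319). NUPR1, a small chromatin cofactor of the stress response, had only 11, 12 and 11 counts in the resistant and 22, 34 and 10 counts in the sensitive libraries (adjusted p = 0.237).

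Every feedback and signalling regulator on the list fell. TRIB3, a pseudokinase that restrains ATF4 and AKT, measured 81.5, 105 and 179 CPM in the resistant libraries, against 388, 391 and 304 CPM in the sensitive libraries (log2 fold change −1.57 ± 0.28 SE, edgeR adjusted p = 0.00323). DDIT4, which encodes the mTORC1 inhibitor REDD1, measured 103, 168 and 367 CPM in resistant and 782, 655 and 476 CPM in sensitive libraries (−1.58 ± 0.41 SE, adjusted p = 0.0203). Resistant libraries differed more among themselves for DDIT4 than for TRIB3, and replicate 3 of each group lay nearest to the other group for both genes. SESN2, a sestrin that senses leucine and also restrains mTORC1, measured 37.7, 45.8 and 72.1 CPM in resistant and 123, 106 and 123 CPM in sensitive libraries (−1.18 ± 0.23 SE, adjusted p = 0.00505). PPP1R15A encodes GADD34, the phosphatase subunit that removes the phosphate from eIF2 and so ends the response. It measured 59.4, 68.5 and 103 CPM in resistant and 178, 149 and 112 CPM in sensitive libraries (−0.93 ± 0.24 SE, adjusted p = 0.0205), with 103 and 112 CPM as the nearest values. The PPP1R15A call was lost without resistant replicate 1 (adjusted p = 0.0657), resistant replicate 2 (0.111), sensitive replicate 1 (0.0884) or sensitive replicate 2 (0.0590). The DDIT4 call was lost without resistant replicate 2 (0.102), sensitive replicate 1 (0.0727) or sensitive replicate 2 (0.0521), and with the replicate block (0.0800).

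**Figure D2:**
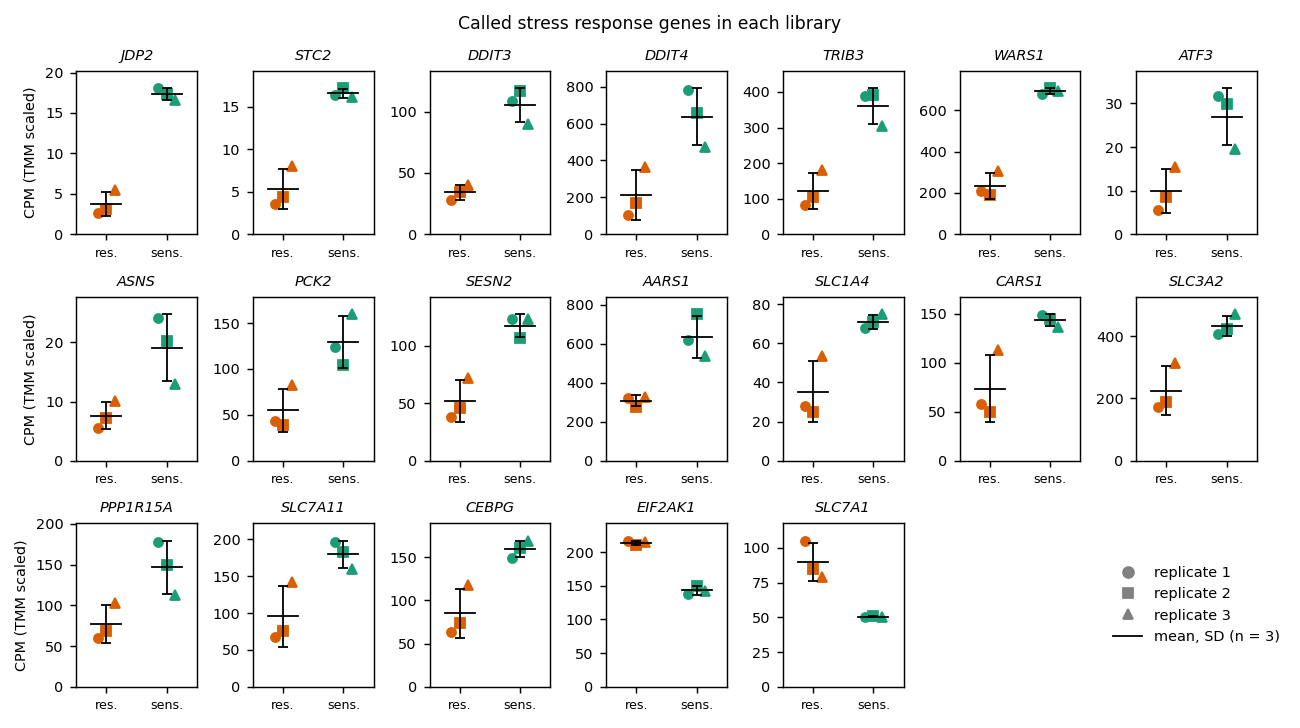
Level of the 19 called stress response genes in each library, in CPM on a linear axis from 0, with resistant libraries on the left and sensitive ones on the right of each panel, and the mean and SD over 3 libraries as lines. In all 17 lower genes the highest resistant library, replicate 3, is the nearest to the sensitive ones.

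Among the enzymes, ASNS and PCK2 fell. ASNS, asparagine synthetase, measured 5.50, 7.18 and 10.1 CPM in the resistant libraries, against 24.1, 20.2 and 13.0 CPM in the sensitive libraries (log2 fold change −1.33 ± 0.28 SE, edgeR adjusted p = 0.00821). GENCODE 29 places an unnamed transcript on the same strand over 44.6% of the exon bases of ASNS, and how reads in that stretch were assigned is not given in the sources used here. That transcript averaged 1.73 ± 0.29 CPM in resistant and 0.75 ± 0.39 CPM in sensitive cells, opposite in direction to ASNS. It was not called (1.21 ± 0.43 SE, edgeR adjusted p = 0.0705). PCK2, the mitochondrial phosphoenolpyruvate carboxykinase, measured 43.2, 38.6 and 82.2 CPM in resistant and 124, 104 and 159.5 CPM in sensitive libraries (−1.24 ± 0.29 SE, adjusted p = 0.0121), a call lost without resistant replicate 2 (0.0694) or sensitive replicate 3 (0.0517). CHAC1, which breaks down glutathione, measured 6.24, 11.3 and 16.01 CPM in resistant and 18.7, 22.2 and 16.3 CPM in sensitive libraries. Its groups just failed to overlap, at 16.01 and 16.3 CPM, and it was not called (−0.77 ± 0.30 SE, adjusted p = 0.0954), but was without resistant replicate 3 (−1.14, 0.0108), without a filter on low counts (0.00425) and with the replicate block (0.0399).

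Of the secreted and surface products, STC2 fell. STC2, the secreted glycoprotein stanniocalcin-2, measured 3.51, 4.42 and 8.02 CPM in the resistant libraries, against 16.3, 17.2 and 16.1 CPM in the sensitive libraries (log2 fold change −1.64 ± 0.29 SE, edgeR adjusted p = 0.00300). The sensitive libraries were close together and the resistant ones spread more. GDF15, a secreted stress cytokine, measured 107, 133 and 135 CPM in resistant and 207, 263 and 73.9 CPM in sensitive libraries, so that sensitive replicate 3 lay below every resistant library (−0.54 ± 0.37 SE, adjusted p = 0.332). Without sensitive replicate 3, GDF15 was called lower (−0.92, adjusted p = 0.0136), as it was without a filter on low counts (−0.55, 0.0470). In that last fit its SE was 0.20 instead of 0.37, although its groups overlap. VLDLR, the very low density lipoprotein receptor, had 13, 15 and 15 counts in resistant and 10, 4 and 8 counts in sensitive libraries (adjusted p = 0.239).

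Of 9 amino acid transporters tested, 3 were called lower and 1 higher. Of all genes tested, 13.1% were lower and 9.83% higher, so the 1 higher gene is near the general share. SLC3A2, SLC7A11 and SLC1A4 fell, SLC7A1 rose, 5 were not called, and SLC7A3 had no count in any library, which allows at most 0.0732 to 0.0901 CPM (3 counts, counting error only). SLC3A2, the heavy chain that carries several light chains to the cell surface, measured 171, 189 and 315 CPM in the resistant libraries, against 409, 423 and 471 CPM in the sensitive libraries (log2 fold change −0.95 ± 0.24 SE, edgeR adjusted p = 0.0189). Its light chain SLC7A11, which imports cystine, measured 67.9, 75.5 and 143 CPM in resistant and 196, 183 and 159.5 CPM in sensitive libraries (−0.91 ± 0.27 SE, adjusted p = 0.0339). SLC7A5, the light chain of the large neutral amino acid transporter, averaged 153 ± 39.6 CPM in resistant and 217 ± 24.5 CPM in sensitive cells and was not called (−0.51 ± 0.21 SE, adjusted p = 0.114). Resistant replicate 3, at 191.4 CPM, overlapped with sensitive replicate 3, at 190.9 CPM, and without resistant replicate 3 SLC7A5 was called lower (−0.72, adjusted p = 0.0179).

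SLC1A4, an exchanger of alanine, serine and cysteine, measured 27.9, 24.7 and 53.5 CPM in resistant and 67.8, 70.8 and 74.9 CPM in sensitive libraries (−1.01 ± 0.26 SE, adjusted p = 0.0218). SLC7A1 imports arginine and lysine and was the only transporter on the list that rose, at 105, 85.1 and 79.2 CPM in resistant and 50.3, 51.2 and 50.2 CPM in sensitive libraries (0.83 ± 0.15 SE, adjusted p = 0.00383). Its 3 sensitive libraries were nearly equal, and each resistant library was above them. The glutamine transporter SLC1A5 averaged 179 ± 49.5 CPM in resistant and 235 ± 13.95 CPM in sensitive cells, and was called lower only without resistant replicate 3 (−0.66, adjusted p = 0.0105) or without both libraries numbered 3. The neutral amino acid transporters SLC38A1 and SLC38A2 averaged 326 ± 39.1 and 367 ± 58.2 CPM in resistant and 298 ± 79.8 and 457 ± 82.5 CPM in sensitive cells (adjusted p = 0.698 and 0.299). SLC6A9, a glycine transporter, averaged 9.24 ± 2.33 CPM in resistant and 12.3 ± 1.78 CPM in sensitive cells (adjusted p = 0.235). The calls of SLC3A2, SLC7A11 and SLC1A4 were each lost without any single library other than resistant replicate 3. Their adjusted p was then between 0.0521 and 0.122, between 0.0630 and 0.164, and between 0.0556 and 0.108. SLC7A11 was also lost with library totals alone (0.0615) and with offsets for length and GC content (0.0699), and the SLC7A1 call held in all 19 alternatives.

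Of the 8 cytosolic aminoacyl-tRNA synthetase genes on the list, WARS1, AARS1 and CARS1 fell and 5 were not called, beside 13.1% lower of all genes tested. These enzymes load tRNAs with their amino acids. WARS1, for tryptophan, which interferon also induces, measured 210.2, 188 and 307 CPM in the resistant libraries, against 679, 706 and 691 CPM in the sensitive libraries (log2 fold change −1.56 ± 0.22 SE, edgeR adjusted p = 0.000833). AARS1, for alanine, measured 322, 276 and 327 CPM in resistant and 619.5, 752 and 538 CPM in sensitive libraries (−1.04 ± 0.19 SE, adjusted p = 0.00383). CARS1, for cysteine, measured 58.1, 49.4 and 112 CPM in resistant and 148, 145 and 137 CPM in sensitive libraries (−0.97 ± 0.28 SE, adjusted p = 0.0306). For AARS1 the 3 resistant libraries were close together, while for CARS1 replicate 3 stood well above the other 2. The CARS1 call was lost with library totals alone (adjusted p = 0.0541) and without any single library other than resistant replicate 3 (0.0716 to 0.140).

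MARS1, for methionine, measured 278, 270.2 and 471 CPM in resistant and 503, 507 and 627 CPM in sensitive libraries. Its groups did not overlap, yet it was not called (−0.68 ± 0.24 SE, adjusted p = 0.0719). It was called lower with DESeq2 (adjusted p = 0.0367), limma-voom (0.0486), the replicate block (0.00360) and no filter on low counts (0.0127), and without resistant replicate 3 (−1.02, 0.00332). EPRS1, for glutamate and proline, averaged 594 ± 214 CPM in resistant and 928 ± 215 CPM in sensitive cells (−0.64 ± 0.28 SE, adjusted p = 0.128). Its mean level in CPM was the highest of the 8 synthetases on the list in both groups, and it was called lower without resistant replicate 3 (adjusted p = 0.00953), with the replicate block (0.00340) and without a filter on low counts (0.0287). GARS1, SARS1 and YARS1, for glycine, serine and tyrosine, and XPOT, the exportin that carries tRNAs out of the nucleus, had log2 fold changes of −0.15, −0.22, −0.33 and −0.15 (adjusted p = 0.703, 0.531, 0.274 and 0.670). For GARS1, SARS1 and XPOT resistant replicate 3 was above every sensitive library, at 624, 643 and 628 CPM. Without resistant replicate 3, GARS1 (−0.49, adjusted p = 0.0467) and YARS1 (−0.57, 0.0273) were called lower.

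Resistant replicate 3 was the highest of the 3 resistant libraries in all 17 genes called lower, and in 32 of the 38 tested. Among all 2741 genes called lower it was the highest in 44.7%, and among all genes tested in 39.8%. Taken against the mean of the sensitive libraries, the 38 genes had a median log2 difference of −0.98, −0.93 and −0.24 in the resistant libraries numbered 1, 2 and 3, and of −0.02, 0.03 and −0.01 in the sensitive ones. The feedback regulators were the lowest role in each resistant library, at −1.88, −1.56 and −0.73. The same library also had the smallest share of mitochondrially encoded transcripts given above. With mitochondrial genes removed before the fit, 17 of the stress response genes were lower and 2 higher, as in the main fit. That fit keeps resistant replicate 3 and its levels of these genes, so it cannot show the part of this difference between libraries in the result. Leaving out resistant replicate 3 gave a call to 8 genes not called in the main fit, and no called gene lost its call. The cause of the difference between libraries was not tested.

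**Figure D3:**
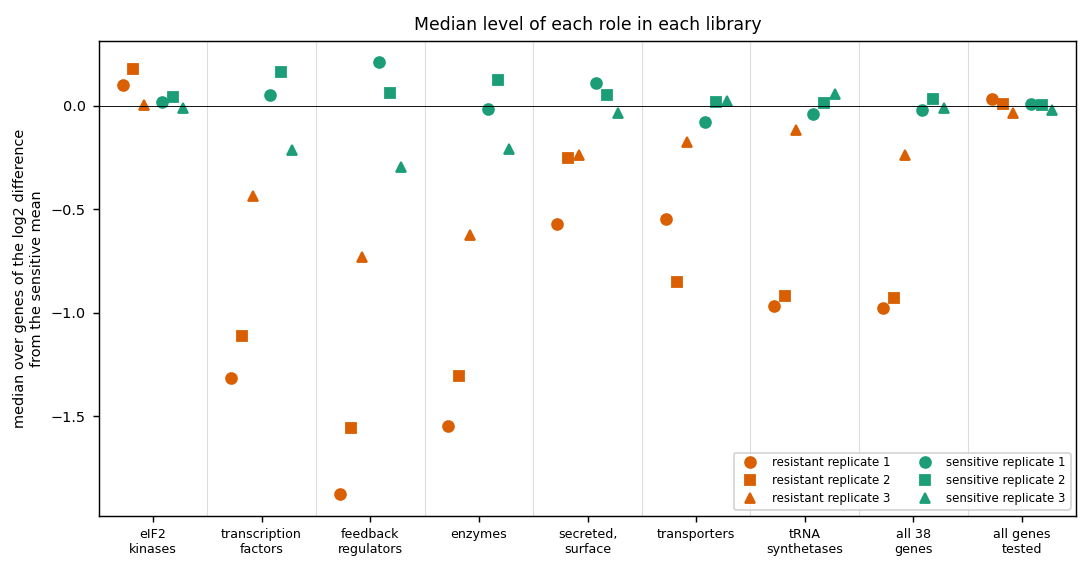
Median over the tested genes of each role of the log2 difference from the mean of the sensitive libraries, for each resistant library (left in each column) and each sensitive library (right). Over all 38 genes, resistant replicate 3 lies at −0.24 and the other 2 resistant libraries at −0.98 and −0.93, while all genes tested lie close to 0 in every library.

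Other genes of the same pathway, 99 in 7 lists chosen by function, were counted in the same fit. These lists, like the 39 genes, were chosen with earlier results of these data known. Of 13 further genes reported as targets of ATF4 or CHOP, 8 of 12 tested fell and none was called higher, with a median log2 fold change of −1.06. As above, 13.1% of all genes tested were called lower and 9.83% higher. INHBE, an inhibin subunit, averaged 13.1 ± 4.08 CPM in resistant and 78.9 ± 27.9 CPM in sensitive cells (edgeR adjusted p = 0.000254). TNFRSF10B, a TRAIL death receptor that CHOP is known to induce, averaged 32.5 ± 2.42 and 106 ± 27.6 CPM in resistant and sensitive cells (adjusted p = 0.000345). KLHL24, a ubiquitin ligase adaptor, averaged 19.96 ± 4.27 CPM in resistant and 54.5 ± 11.7 CPM in sensitive cells (adjusted p = 0.00129). Of 12 serine, one-carbon and proline enzymes, 4 fell and none was called higher (median −0.49), among them ALDH1L2 (−1.18 ± 0.21 SE, adjusted p = 0.00313), SHMT2 (−0.91 ± 0.21, 0.0112) and MTHFD2 (−1.33 ± 0.31, 0.0133). MTHFD1L, a mitochondrial folate enzyme like these 3, was not called (−0.24, adjusted p = 0.338).

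Of the other 5 lists, which may also hold ATF4 targets, that of the endoplasmic reticulum had a median of −0.69. The rest had medians between −0.21 and 0.19. Of 12 other cytosolic synthetases LARS1, for leucine, fell (−0.64 ± 0.18 SE, edgeR adjusted p = 0.0269) and VARS1, for valine, rose (0.96 ± 0.21, 0.00864), with a median of −0.21. Of 17 mitochondrial synthetases WARS2 (0.95 ± 0.18, adjusted p = 0.00438) and EARS2 (0.68 ± 0.21, 0.0391) rose and none was called lower, with a median of 0.19. Of 15 genes for eIF2, its exchange factor and other upstream proteins, EIF2B2 (−0.59 ± 0.17, 0.0343) and the eIF2 kinase inhibitor DNAJC3 (−0.49 ± 0.14, 0.0301) fell, and the median was 0.00. The shares called lower in the eIF2 list and higher in the mitochondrial list were near the 13.1% and 9.83% of all genes tested, so they are not results about these lists. The same holds for the 1 lower and 1 higher gene of the 12 other cytosolic synthetases. Of 15 other amino acid transporters 12 were tested, and SLC36A4 (2.63 ± 0.27, 0.000125), SLC7A2 and SLC7A8 rose while SLC16A10 fell (−1.64 ± 0.26, 0.00171). SLC7A2, a cationic amino acid transporter like SLC7A1, had 82, 58 and 73 counts in the resistant and 0, 2 and 6 counts in the sensitive libraries (adjusted p = 0.00157). Of 15 genes of the ATF6 and XBP1 arm, which serves protein folding in the endoplasmic reticulum, 7 fell and none was called higher. They included HERPUD1 (−1.39 ± 0.17, 0.000340), SEL1L (−1.21 ± 0.16, 0.000513) and ERN1 (−0.90 ± 0.19, 0.00667), while HSPA5, the chaperone BiP, was not called (−0.69 ± 0.34, 0.171). Differences between lists were not tested.

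**Figure D4:**
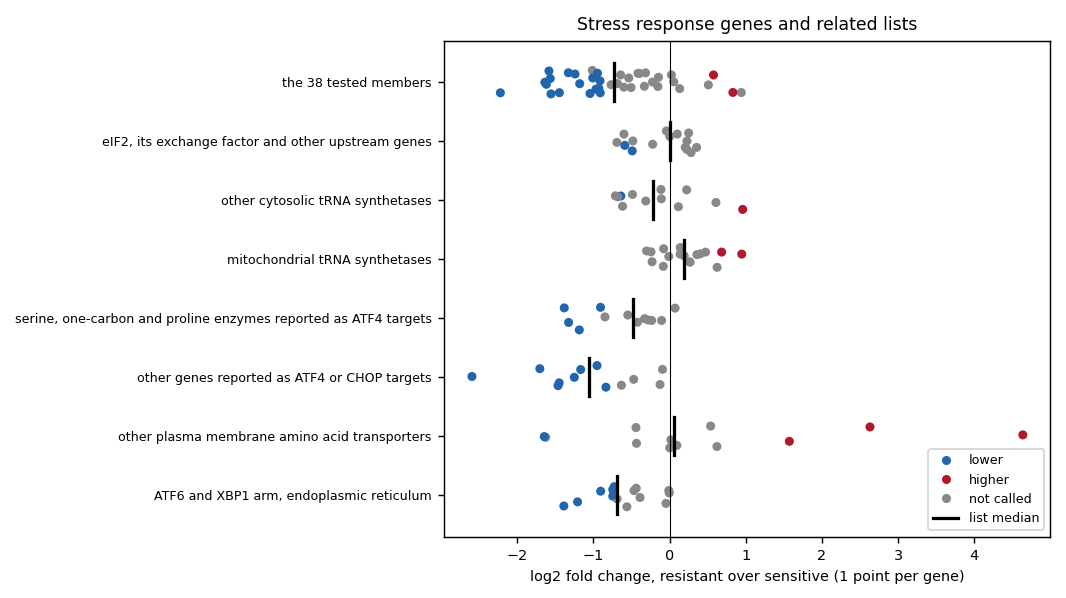
Log2 fold change, resistant over sensitive, of each tested gene of the stress response set (top) and of the 7 related lists, with the list median as a bar. The median is −0.73 for the 38 genes, −1.06 for further ATF4 or CHOP targets, −0.69 for the endoplasmic reticulum arm and 0.19 for mitochondrial synthetases.

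The genes that fell were spread over the genome. The 17 lie on 12 chromosomes, and each was below the median of up to 30 neighbouring protein-coding genes tested. Because the 17 were picked for low values, that position below the neighbours is largely given by the choice. Those neighbour medians were between −0.38 (DDIT3) and 0.34 (ASNS), below 0 for 10 of the genes and above 0 for 7. EIF2AK1, on chromosome 7, had neighbours with a median of 0.36 beside its own 0.58, and SLC7A1, on chromosome 13, neighbours with 0.18 beside its own 0.83. SARS1, on chromosome 1 at 109213918 to 109238169 in GENCODE 29 coordinates, stood apart from its surroundings: its neighbours had a median of 0.90 and SARS1 itself −0.22 ± 0.23 (SE). ATF5 on chromosome 19 was level with its neighbours, at 0.51 for both. Exons of 16 of the 39 genes share bases with a gene annotated on the opposite strand, and the strand setting of the counting is not given in the sources used here, so reads in these stretches may belong to either gene. The shared part was 41.2% of the exon bases for DDIT4 (with DDIT4-AS1), 27.2% for DDIT3 (with MARS1), 23.4% for SLC1A5 (with an unnamed gene) and 21.2% for ATF5 (with NUP62), and the counts of these genes are uncertain. So are those of ASNS, which shares 44.6% with an unnamed transcript on the same strand.

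**Figure D5:**
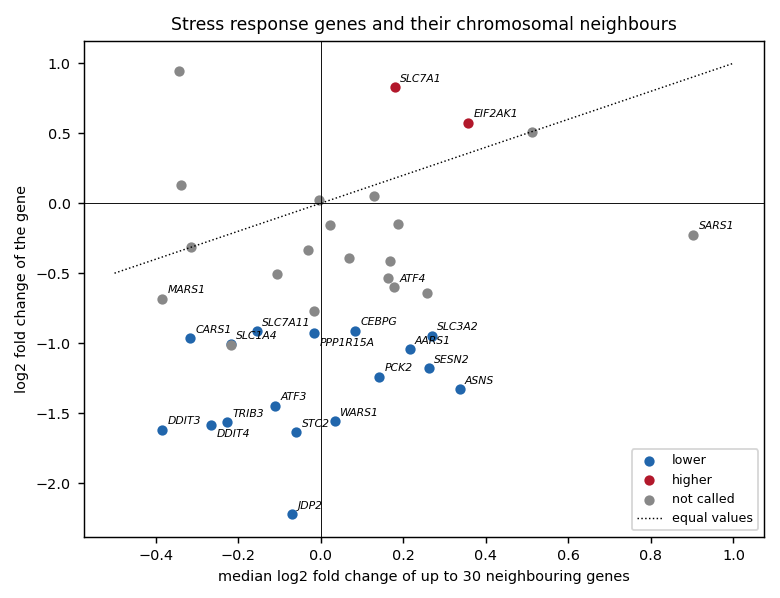
Log2 fold change, resistant over sensitive, of each of the 38 tested genes (vertical axis) against the median of up to 30 neighbouring tested protein-coding genes (horizontal axis), with a dotted line at equal values. The 17 genes called lower, picked for low values, all lie below the line, and SARS1 lies far to the right at 0.90 with a value of −0.22.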

How the data were processed

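RNA was measured in 6 libraries. Per the labels' protocols, total RNA was treated with DNase, depleted of ribosomal RNA and made into strand-specific paired-end libraries. The submitters' processing notes name Trimmomatic 0.39, HISAT2 2.2.1, featureCounts and Subread 2.0.3, and the build GRCh38. Annotation, strand setting and the unit counted (read or fragment) are not given there. The authors deposited unnormalised whole-number counts for each Ensembl identifier. Symbols came from a reference name table (61369 of 61487 identifiers) and positions and exon lengths from GENCODE 29 (58312).

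Resistant and sensitive libraries were compared in R 4.3.3 by the robust quasi-likelihood test of edgeR 4.0.16, two-sided and without covariates, after filterByExpr (20891 genes left) and TMM scaling. A gene is called higher or lower where its Benjamini-Hochberg adjusted p over all genes tested is below 0.05. The SE is the size of the log2 fold change divided by the square root of F. The libraries are biological replicates by label, but separate cultures are not stated, and p-values then cover only the spread among these libraries, which may be technical. Lists are described by counts and medians. The 39 genes, the lists, the motifs and the rule for the genes named were chosen with earlier results of these data known. All 39 are named, with up to 3 called genes per related list; HSPA5, MTHFD1L and SLC7A8 were added after their values were seen.

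Alternatives were RLE factors, upper quartile factors, library totals, 2 other filters on low counts, mitochondrial genes removed, a replicate block, offsets for transcript length and GC content (loess, span 0.3) with and without the block, DESeq2 1.42.0, limma-voom 3.58.1, an adjusted p below 0.01, and libraries left out. The steps were tested on simulated counts with 200 genes changed.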

Additional observations from a re-analysis of the deposited data

How the results depend on the processing

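In 19 alternatives no called gene of the 39 changed direction, 9 of the 19 kept their call throughout (DDIT3, JDP2, TRIB3, SESN2, ASNS, STC2, SLC7A1, AARS1 and WARS1), and 11 of the 19 that were not called passed under at least 1 alternative. Leaving out single libraries gave 8 to 25 lower and 1 to 2 higher stress response genes, and 1677 to 3718 lower and 1051 to 3327 higher genes of all. Without both libraries numbered 3 there were 27 lower stress response genes, and 5021 lower and 4645 higher genes of all. At an adjusted p below 0.01 the counts were 8 lower and 1 higher, and 1586 and 938 of all. The fit without a filter on low counts gave 5 stress response genes a call, under the limit on its SEs given above. The replicate block gave 20 lower and 2 higher, and 3582 and 2859 of all, and with offsets for length and GC content 3575 genes were higher. The labels do not say whether equal numbers mark paired libraries, and the correlations of their deviations do not settle it. Same-numbered libraries correlated at 0.202, 0.0850 and 0.299. Differently numbered libraries correlated at −0.312 to 0.230, and resistant replicate 1 correlated better with sensitive replicate 2 (0.230) than with 1.

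Directions turned only for genes that were not called. Leaving out single libraries gave log2 fold changes of −0.0518 to 0.0518 for EIF2AK3, −0.0137 to 0.112 for EIF2AK4, −0.0111 to 0.368 for SLC38A1 and −0.489 to 0.00141 for GARS1. EIF2AK3 was at −0.0457 without both libraries numbered 3, and GARS1 and XPOT were at 0.0212 and 0.0215 with library totals alone. The cause was not tested. With 10 to 34 counts for NUPR1 and 4 to 15 for VLDLR, depth limits both.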

Other observations

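The element TGATGCAA was also counted outside the 39 genes. Of 86 other tested genes whose promoter window held it, 23 were lower (26.7%) and 4 higher (4.65%) in resistant cells, with a median log2 fold change of −0.16. Only the 39 genes were left out, so genes of the related lists may be among the 86. Among all 12227 tested genes with a window, 14.9% were lower and 11.2% higher, with a median of −0.03. With TGATGNAA the numbers were 342 genes, 24.6% lower and 9.94% higher. Among the 39 genes, 5 of the 8 that held TGATGCAA fell and none was called higher, beside 17 lower and 2 higher of all 38 tested. The difference between these shares was not tested.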
